A study of Mus musculus with 10 samples.

Results

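The 10 genes described here are expressed in the hepatocytes around the central vein of the liver lobule and depend on Wnt signalling. They were taken by symbol (Glul, Axin2, Lgr5, Rnf43, Znrf3, Tbx3, Oat, Slc1a2, Rhbg and Lect2) from a table of 24537 gene symbols, and all 10 were found and passed the filter on low counts. RNA was sequenced from 10 whole livers of male mice. The Cd44 vector is an adeno-associated virus of serotype 8 (AAV8) in which the hepatocyte promoter TBG drives saCas9, the Cas9 of Staphylococcus aureus, and U6 drives a guide RNA. Young controls (n = 3, 9 months) and old controls (n = 3, 25 months) carry the genotype Rosa26-KO, named for a locus widely used as a neutral editing site. The third group (n = 4, 25 months) was edited at Cd44, which encodes a cell surface receptor, with guide 4 in replicates 1 and 2 (Cd44-KO_g4) and guide 2 in replicates 3 and 4 (Cd44-KO_g2). The virus was given at 7 and at 23 months of age. The controls' vector is not spelled out in the labels, but their genotype means that they too are edited animals. The promoter restricts Cas9 to hepatocytes, whereas the RNA comes from all cells of the liver. Replicate numbers only name a liver. The labels name no batch and no shared animals, so p-values measure the spread between these samples.

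Wnt ligands and R-spondin 3 from the endothelium of the central vein hold beta-catenin active in the hepatocytes beside it. LGR5 binds R-spondins and thereby removes the ubiquitin ligases RNF43 and ZNRF3, which otherwise clear Frizzled receptors from the cell surface, and AXIN2 promotes the breakdown of beta-catenin. Lgr5, Rnf43, Znrf3 and Axin2 are themselves Wnt targets, so they report the signal and adjust it. The same zone captures the ammonia that the periportal urea cycle leaves over, and glutamine synthetase (Glul) is its best known enzyme.

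Total counts were 15821198 to 21710228 per liver. Values are CPM, read counts relative to library size, scaled by trimmed mean of M values (TMM) factors, which correct for a few genes taking up much of a library. These factors were 0.823 to 0.897 in young and 0.966 to 1.12 in old livers. Relative to TMM, plain total counts would therefore raise the median old-to-young log2 fold change of all genes by 0.31. The targeted gene did not separate the groups. Cd44 had 14.2, 30.0 and 25.9 CPM in old controls and 18.9, 29.0, 17.6 and 13.1 CPM in the livers labelled Cd44KO (log2 fold change -0.25, SE 0.30; edgeR adjusted p 0.896), so directions in that comparison rest on the labels. Old control replicate 3, whose library name lies outside the run of the others, was the liver with the highest value for 6 of the 10 genes, against 13.5% of all genes tested. For the 10 genes, the comparisons of old controls with young and with all Cd44KO livers are also given without it. Those of a single guide with old controls are not.

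Hepatocyte identity of the tissue was clear from 9 markers such as Alb, whose summed level was 109367 to 138917 CPM in young, 84714 to 119032 in old control and 94315 to 95714 in Cd44KO livers. Liver endothelium markers (12 genes) summed to 231 to 320 CPM in young, 451 to 538 in old control and 311 to 381 in Cd44KO livers. Kupffer cell and macrophage markers (9 genes) summed to 229 to 331, 441 to 1471 and 392.02 to 712 CPM in the same order. In whole-liver RNA, fewer cells of a type and less RNA per cell cannot be told apart. Stellate cell markers (8 genes) summed to 156 to 245, 318 to 461 and 267 to 309 CPM. Old control replicate 2 stood apart in neutrophil markers (8 genes), at 298 CPM against 16.3 and 14.6 CPM in the other old controls, and had the highest Kupffer cell and T cell sums. The part of these markers in the results below was not tested.

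Per kilobase of exon, the 10 genes spanned a wide range of levels in young livers. Glul led with 338 ± 38.7 CPM per kb (SD, n = 3), followed by Oat with 280 ± 60.8, Lect2 with 96.8 ± 11.2, Slc1a2 with 9.68 ± 2.15 and Tbx3 with 8.18 ± 1.39 CPM per kb. Rhbg had 5.71 ± 2.498, Rnf43 2.14 ± 0.35, Axin2 1.18 ± 0.368, Znrf3 1.07 ± 0.181 and Lgr5 0.334 ± 0.0334 CPM per kb (SD, n = 3 each). The ranges of Glul and Oat overlapped, as did those of Slc1a2 and Tbx3, of Tbx3 and Rhbg, and of Axin2 and Znrf3, while the other neighbours in this order did not. The enzymes thus lay far above the receptors and feedback genes. Counts per liver were 11316 to 40791 for Glul but only 48 to 175 for Lgr5, 67 to 281 for Axin2 and 66 to 262 for Rhbg, so counting error weighs more on the last 3. In old controls the order was the same except that Rnf43, at 3.72 ± 0.434 CPM per kb, lay above Rhbg, at 2.86 ± 0.747 (SD, n = 3 each).

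Upstream sequence is shown for 4 members: Rnf43, the gene that passed the test below; Glul, the best known gene of the zone; and Slc1a2 and Lect2, in which letters of a TCF/LEF motif occur. Each is the 250 bases before a RefSeq transcript start on GRCm38.p6, read 5′ to 3′ on the gene's strand, with motif letters in capitals. RefSeq entries matched 6 of the 10 genes with 7 start sites; Lgr5, Znrf3, Tbx3 and Rhbg were not matched. Rnf43 has a second start site, not shown.
Rnf43 (chr11:87662837-87663086, plus strand): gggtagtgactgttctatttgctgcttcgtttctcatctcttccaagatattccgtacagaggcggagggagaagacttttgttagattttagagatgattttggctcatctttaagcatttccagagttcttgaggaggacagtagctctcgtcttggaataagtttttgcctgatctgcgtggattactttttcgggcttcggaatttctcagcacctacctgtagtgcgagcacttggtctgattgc
Glul (chr1:153899679-153899928, plus strand): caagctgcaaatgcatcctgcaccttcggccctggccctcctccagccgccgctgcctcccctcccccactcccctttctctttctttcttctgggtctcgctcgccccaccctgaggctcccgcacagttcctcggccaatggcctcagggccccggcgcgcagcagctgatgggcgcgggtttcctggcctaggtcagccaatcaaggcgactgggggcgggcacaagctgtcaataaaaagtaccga
Slc1a2 (chr2:102706188-102706437, plus strand): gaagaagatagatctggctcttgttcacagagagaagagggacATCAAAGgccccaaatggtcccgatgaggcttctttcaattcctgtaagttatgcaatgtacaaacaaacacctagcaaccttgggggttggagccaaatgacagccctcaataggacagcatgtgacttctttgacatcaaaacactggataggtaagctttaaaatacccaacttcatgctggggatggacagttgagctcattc
Lect2 (chr13:56548539-56548788, minus strand): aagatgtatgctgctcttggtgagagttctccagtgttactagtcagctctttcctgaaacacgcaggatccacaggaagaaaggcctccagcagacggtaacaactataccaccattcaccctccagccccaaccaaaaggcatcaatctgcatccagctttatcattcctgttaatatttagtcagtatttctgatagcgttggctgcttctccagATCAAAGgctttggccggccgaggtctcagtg

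CTTTGAT and CTTTGTT were searched on both strands, since beta-catenin acts through TCF/LEF factors that bind such letters. CTTTGAT occurred on the strand opposite to the printed one, so it reads ATCAAAG above. In Slc1a2 these letters start 207 bases before the transcript start, and in Lect2 32 bases before it. The start site listed for Slc1a2 and the 2 listed for Rnf43 lie inside the annotated span of their gene. The windows before them, including the Rnf43 sequence shown, therefore also lie within the gene. Of 32851 windows of this length, 3.21% hold CTTTGAT, 5.03% hold CTTTGTT and 8.06% hold either. The other 5 windows of members, 2 of them of Rnf43, hold neither motif. A match is a description of letters and shows no binding.

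**Figure D1:**
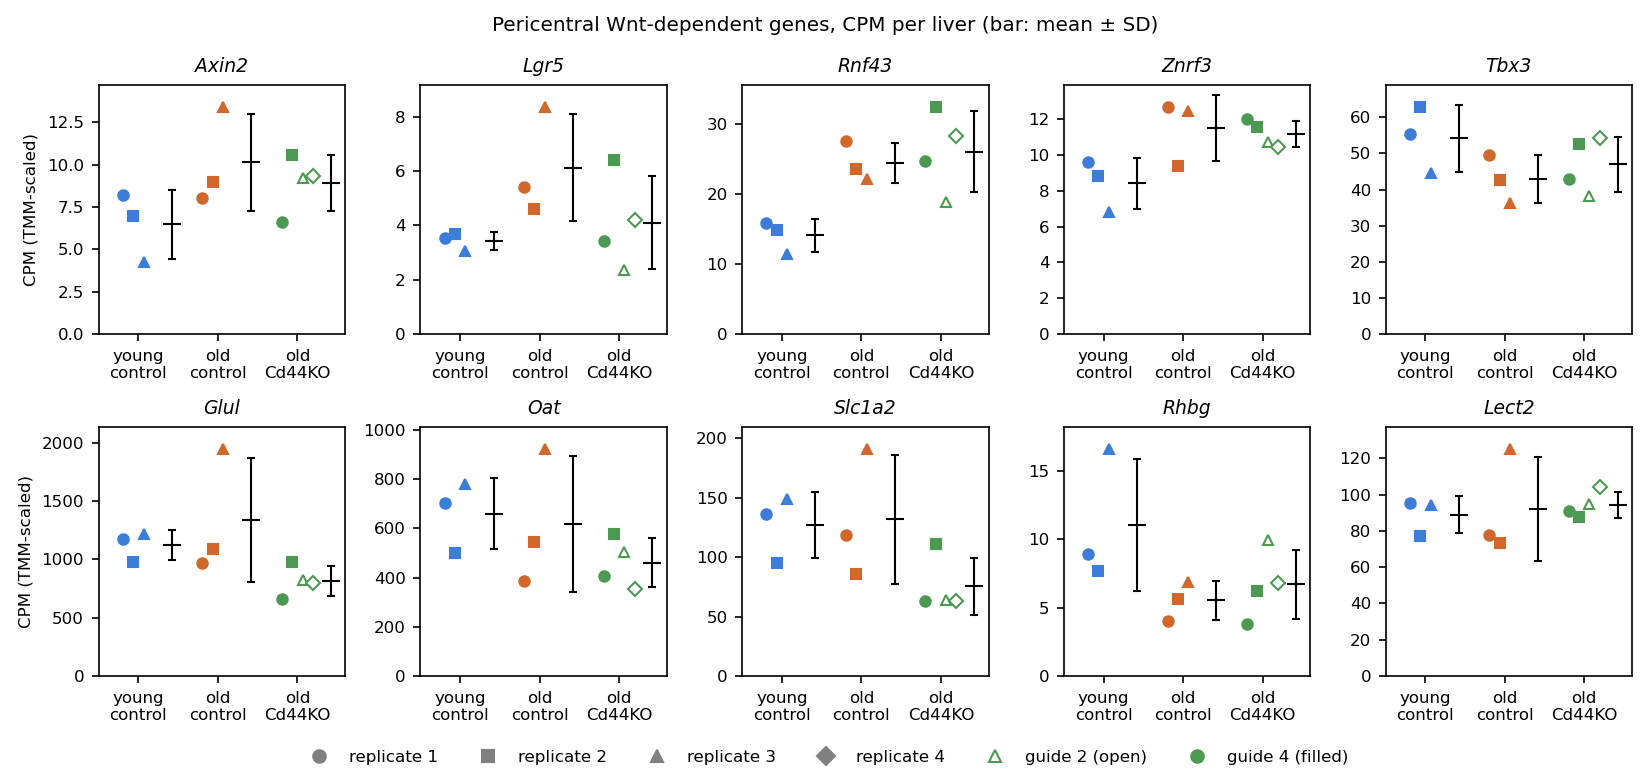
TMM-scaled CPM of the 10 genes in each liver, in 1 panel per gene with its own axis from 0. Marker shapes name replicates, open green symbols are guide 2 livers and bars give the mean and SD. All Rnf43 values of old livers lie above the young ones, and old control replicate 3 (orange triangle) is highest for Glul, Oat, Slc1a2, Lect2, Axin2 and Lgr5.

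The first comparison set old against young control livers. Of the 10 genes, 1 rose (Rnf43) and 0 fell by the edgeR test with an adjusted p under 0.05. Of the 13909 genes tested, 22.8% were called, 14.1% as higher and 8.66% as lower. The receptor and feedback genes had positive log2 fold changes, the enzymes and transporters lay on both sides of 0, and the median over the 10 genes was 0.15, against 0.04 over all genes tested. The old and young ranges did not overlap for 2 genes that were higher (Rnf43 and Lgr5; 19.7% of all genes) and 1 that was lower (Rhbg; 18% of all genes).

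Rnf43 (chromosome 11, 87662722 to 87735539, plus strand, GRCm38) encodes a membrane ubiquitin ligase that removes Frizzled receptors. It had 15.8, 14.8 and 11.5 CPM in the young livers and 27.6, 23.5 and 22.1 CPM in the old controls. Every old control lay above every young liver (log2 fold change 0.80, SE 0.20; 95% interval 0.36 to 1.23; edgeR adjusted p 0.0201). The rise was 1.74-fold. The call was lost without young replicate 2 (edgeR adjusted p 0.068), without young replicate 3 (0.0705) or without old control replicate 2 (0.055), with log2 fold changes of 0.66 to 0.89 when any liver was left out (0.86 without old control replicate 3). None of the exon bases of Rnf43 is shared with another annotated gene.

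Znrf3 (chromosome 11, 5276324 to 5444847, minus strand), the paralog of Rnf43 with the same role, had 9.61, 8.84 and 6.84 CPM in young and 12.7, 9.39 and 12.4 CPM in old control livers. Old control replicate 2 fell within the young range, and the log2 fold change of 0.45 (SE 0.17, 95% interval 0.07 to 0.83) did not pass (edgeR adjusted p 0.0827) and was 0.38 without old control replicate 3. Lgr5 (chromosome 10, 115450311 to 115587780, minus strand), the R-spondin receptor, had 3.55, 3.69 and 3.04 CPM in young and 5.41, 4.60 and 8.35 CPM in old control livers. The groups did not overlap, and the log2 fold change was 0.83 (SE 0.35, 95% interval 0.08 to 1.59, edgeR adjusted p 0.10). Without old control replicate 3 it was 0.54. Axin2 (chromosome 11, 108920349 to 108950783, plus strand), a scaffold of the beta-catenin destruction complex, had 8.20, 6.99 and 4.24 CPM in young and 8.06, 8.98 and 13.4 CPM in old control livers. Old control replicate 1 lay inside the young range, with a log2 fold change of 0.65 (SE 0.28, 95% interval 0.04 to 1.25, edgeR adjusted p 0.109), and 0.39 without old control replicate 3. With total counts in place of TMM, Axin2, Lgr5 and Znrf3 passed as well, with log2 fold changes of 0.94, 1.12 and 0.75 and edgeR adjusted p of 0.021, 0.0315 and 0.00942. Under that scaling 30.4% of all genes were called, and 91.6% of the called genes were higher in old livers, against 62.0% with TMM.

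Tbx3 (chromosome 5, 119670669 to 119684724, plus strand), a transcription factor downstream of beta-catenin in the liver, had 55.3, 62.8 and 44.5 CPM in young and 49.6, 42.6 and 36.2 CPM in old control livers. Old control replicates 2 and 3 fell below the young range. Its log2 fold change was -0.34 (SE 0.18, 95% interval -0.73 to 0.05, edgeR adjusted p 0.187), and -0.24 without old control replicate 3.

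Glul (chromosome 1, 153899944 to 153909723, plus strand) makes glutamine from glutamate and ammonia. It had 1176, 977 and 1218 CPM in young livers and 967, 1091 and 1946 CPM in old controls. Only old control replicate 3 lay above the young range, with a log2 fold change of 0.25 (SE 0.25, 95% interval -0.30 to 0.80, edgeR adjusted p 0.494) that turned to -0.13 without that liver. Oat (chromosome 7, 132557478 to 132576398, minus strand), the mitochondrial ornithine aminotransferase that feeds glutamate to this pathway, had 701, 500 and 778 CPM in young and 387, 543 and 921 CPM in old control livers. Its old range enclosed the young one, with a log2 fold change of -0.10 (SE 0.30, 95% interval -0.76 to 0.56, edgeR adjusted p 0.838), -0.51 without old control replicate 3 and 0.17 with total counts in place of TMM. Slc1a2 (chromosome 2, 102658659 to 102790784, plus strand), a glutamate transporter, had 137, 95.4 and 149 CPM in young and 119, 85.5 and 191 CPM in old control livers. Again the old range enclosed the young one, and the log2 fold change of 0.05 (SE 0.31, 95% interval -0.63 to 0.73, edgeR adjusted p 0.919) turned to -0.32 without old control replicate 3.

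Rhbg (chromosome 3, 88242874 to 88254709, minus strand) encodes an ammonium transporter of the cell membrane. It had 8.93, 7.65 and 16.6 CPM in young and 4.03, 5.65 and 6.92 CPM in old control livers. All old controls lay below all young livers, but the young values were dispersed by replicate 3, and the log2 fold change of -0.998 (SE 0.37, 95% interval -1.80 to -0.19) did not pass (edgeR adjusted p 0.0704). It passed in DESeq2 (adjusted p 0.0366) and without old control replicate 3 (-1.19, edgeR adjusted p 0.0439), and it was -0.59 without young replicate 3. Of the exon bases of Rhbg, 61.4% are shared with the same-strand gene Gm38392. That symbol is absent from the deposited counts, so whether reads of Gm38392 were counted as Rhbg is uncertain. Lect2 (chromosome 13, 56542464 to 56548502, minus strand), a protein secreted by hepatocytes, had 95.3, 77.1 and 94.5 CPM in young and 77.5, 73.3 and 125 CPM in old control livers. The groups overlapped, with a log2 fold change of 0.05 (SE 0.19, 95% interval -0.38 to 0.47, edgeR adjusted p 0.879), which turned to -0.24 without old control replicate 3.

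**Figure D2:**
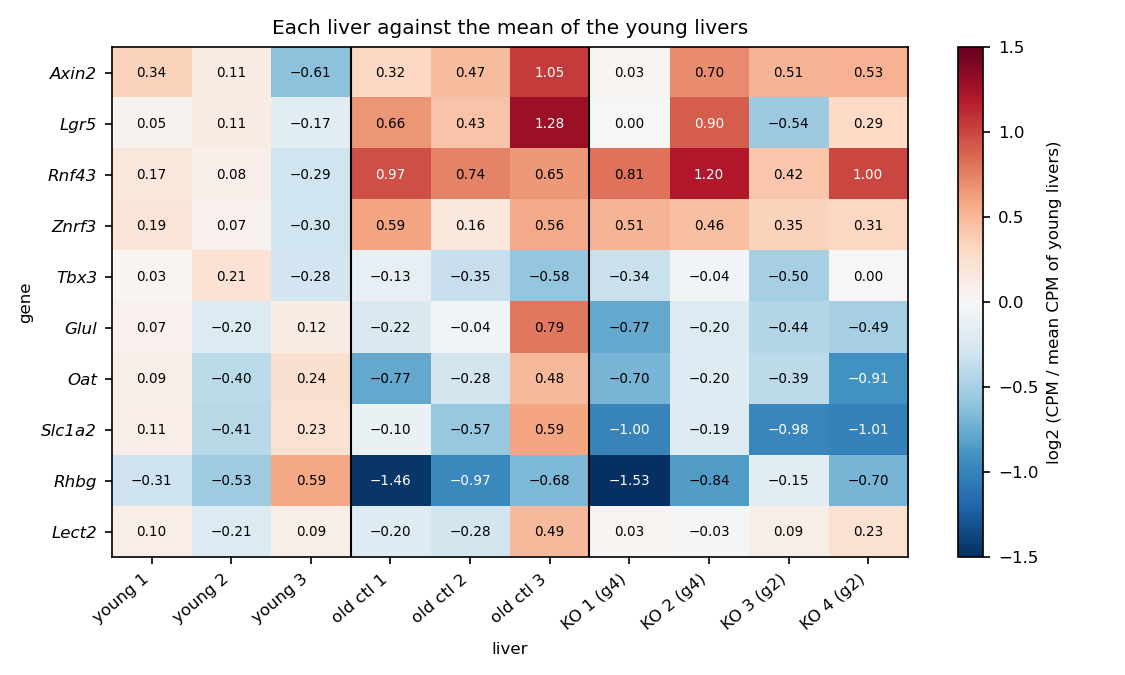
Log2 ratio of each liver's CPM to the mean of the 3 young livers, with genes in rows and livers in columns (ctl, control; KO, livers labelled Cd44KO; g2 and g4, guides). Rnf43, Znrf3 and Axin2 are above 0 in all 7 old livers, Rhbg is below 0 in all 7, and Tbx3 is at or below 0 in all 7. Glul, Oat, Slc1a2 and Lect2 are at 0.79, 0.48, 0.59 and 0.49 in old control replicate 3 and lower in every other old liver.

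The livers did not order the 10 genes alike. Old control replicate 3 was the highest of all 10 livers for Glul, Oat, Slc1a2, Lect2, Axin2 and Lgr5, yet the lowest for Tbx3. In Cd44KO replicate 2, Rnf43 reached its maximum of 32.3 CPM. Cd44KO replicate 1 had the lowest Glul, 658 CPM, and the lowest Rhbg, 3.84 CPM. Glul ranged 2.96-fold over the 10 livers, Rhbg 4.33-fold and Lect2 1.70-fold. Among old controls the coefficient of variation was 39.9% for Glul, 44.5% for Oat and 40.9% for Slc1a2, against 11.4%, 21.7% and 22.2% in young livers. Without old control replicate 3, the highest liver for each of these genes, it was 8.51%, 23.8% and 23.1% over the 2 livers left. Dropping the highest of so few values tends to narrow a spread, and the source of the wider spread was not tested.

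The second comparison set the livers labelled Cd44KO against old controls. Of the 10 genes, 0 passed, as did 0% of the 13909 genes tested with edgeR. At an unadjusted p under 0.05 there were 2 of the 10, Glul and Slc1a2, both with lower values in Cd44KO livers, where 6.59% of all genes reached that level and 4.02% were lower. The groups overlapped for all 10 genes, whereas 2.84% of all genes were higher and 3.26% lower without overlap. DESeq2 likewise called 0 of the 10. The median log2 fold change of the 10 genes was -0.11, against -0.02 over all genes tested.

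Glul had 658, 977, 827 and 798 CPM in Cd44KO replicates 1 to 4 against 967, 1091 and 1946 CPM in the old controls. Cd44KO replicate 2 lay above the lowest old control, so the groups overlapped. The log2 fold change was -0.71 (SE 0.23, 95% interval -1.22 to -0.20) at an edgeR p of 0.0106 (adjusted p 0.744.) Without old control replicate 3 it was -0.34 (edgeR adjusted p 0.457). Slc1a2 had 63.4, 111, 64.4 and 62.9 CPM against 119, 85.5 and 191 CPM. Cd44KO replicate 2 stood apart from the other 3, which all lay below every old control. The log2 fold change was -0.80 (SE 0.29, 95% interval -1.43 to -0.17) at an edgeR p of 0.017 (adjusted p 0.744.) Without old control replicate 3 it was -0.43, and without Cd44KO replicate 2 it was -1.05. Slc1a2 ends 20356 bases from Cd44 on chromosome 2, on the opposite strand, so the gene whose locus was targeted is its neighbour.

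Oat had 407, 575, 504 and 352 CPM in the Cd44KO livers, inside or below the old control range, with a log2 fold change of -0.43 (SE 0.28, 95% interval -1.04 to 0.19, edgeR adjusted p 0.798). Without old control replicate 3 that value was -0.02. Lgr5 had 3.43, 6.41, 2.35 and 4.20 CPM, with a log2 fold change of -0.57 (SE 0.31, 95% interval -1.26 to 0.12, edgeR adjusted p 0.772), and -0.28 without old control replicate 3. The feedback genes were closer to the old controls. Rnf43 had 24.7, 32.3, 18.8 and 28.2 CPM, a log2 fold change of 0.09 (95% interval -0.31 to 0.49). Znrf3 had 12.0, 11.6, 10.7 and 10.4 CPM, a log2 fold change of -0.04 (95% interval -0.39 to 0.31). Axin2 had 6.62, 10.6, 9.23 and 9.34 CPM, a log2 fold change of -0.18 (95% interval -0.73 to 0.37) that turned to 0.07 without old control replicate 3. Tbx3 with 42.9, 52.6, 38.2 and 54.2 CPM, Rhbg with 3.84, 6.20, 9.94 and 6.83 CPM and Lect2 with 91.0, 87.3, 94.9 and 104 CPM also overlapped the old controls, with log2 fold changes of 0.13, 0.28 and 0.04. The edgeR adjusted p was 0.899 or more for each of these 6 genes. Without old control replicate 3 the log2 fold change was 0.03 for Rnf43, 0.02 for Znrf3, 0.03 for Tbx3, 0.47 for Rhbg and 0.32 for Lect2, none past the threshold.

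**Figure D3:**
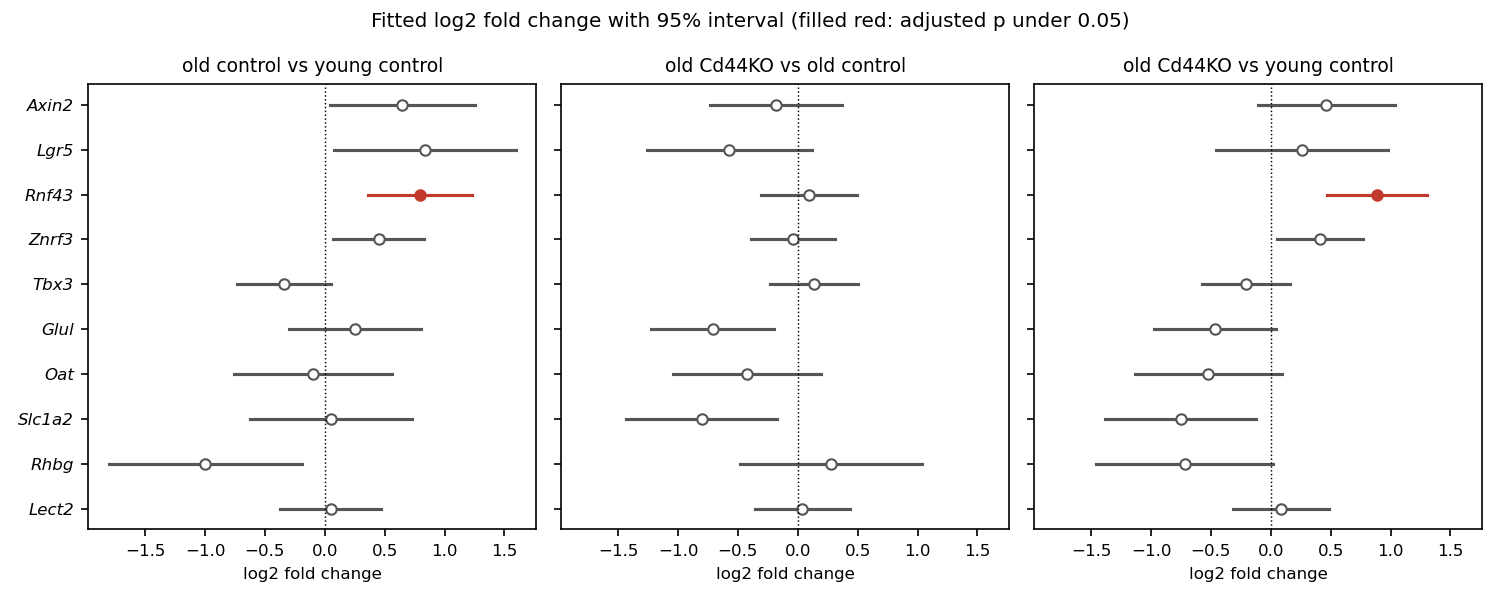
Fitted log2 fold changes of the 10 genes in the comparisons of the 3 groups, with 95% intervals as horizontal lines. Filled red points have an adjusted p under 0.05, which holds for Rnf43 against the young livers (0.80 in old controls and 0.89 in Cd44KO livers) and for no gene between Cd44KO and old control livers.

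The third comparison set livers labelled Cd44KO against young controls and shares the young livers with the first. Of the 10 genes, 1 rose and 0 fell, against 11.6% of all genes called with edgeR (6.64% higher, 4.97% lower). Rnf43 was higher in all 4 Cd44KO livers than in any young liver, with a log2 fold change of 0.89 (SE 0.19, 95% interval 0.47 to 1.30, edgeR adjusted p 0.0224). That call was lost without young replicate 2 (edgeR adjusted p 0.0908), young replicate 3 (0.0784), Cd44KO replicate 2 (0.0557) or Cd44KO replicate 4 (0.0602). Znrf3 was also above every young liver in all 4 (log2 fold change 0.41, SE 0.16; edgeR adjusted p 0.11). Groups without overlap and higher values made up 21.1% of all genes, and those with lower values 18.8%. Glul belonged to the latter (log2 fold change -0.46, SE 0.23; edgeR adjusted p 0.185). Glul and Slc1a2 passed when the fit held these 2 groups alone, with log2 fold changes of -0.46 and -0.75 and edgeR adjusted p of 0.0397 and 0.033. That fit called 31% of all genes, so 3 of the 10 genes is close to the background share, and the fold changes were near those over all livers. In the fit over all livers Slc1a2 had -0.75 (SE 0.29, edgeR adjusted p 0.0986), Rhbg -0.72 (0.34, 0.16) and Oat -0.52 (0.28, 0.211). Axin2 had 0.47, Lgr5 0.26, Tbx3 -0.21 and Lect2 0.08, with edgeR adjusted p of 0.23 or more. With total counts in place of TMM, Axin2 (0.80, edgeR adjusted p 0.0382) and Znrf3 (0.73, 0.0126) passed too, where 25.8% of all genes were called, and Tbx3 turned to 0.12.

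Guides were compared with 2 livers each. None of the 10 genes passed between guide 4 and guide 2, where 0.0216% of all genes did in edgeR, and at an unadjusted p under 0.05 there were also 0 of 10 (4.34% of all genes). DESeq2 called 0 of the 10 as well. The widest differences were in Rhbg, with 3.84 and 6.20 CPM for guide 4 against 9.94 and 6.83 CPM for guide 2 (log2 fold change -0.74, 95% interval -1.66 to 0.18), and in Lgr5, with 3.43 and 6.41 against 2.35 and 4.20 CPM (0.60, 95% interval -0.29 to 1.495). Glul means were 817 ± 226 CPM with guide 4 and 812 ± 20.9 CPM with guide 2 (SD, n = 2 per guide), which differed by 0.01 on the log2 scale (95% interval -0.71 to 0.72). Against old controls, Glul was -0.72 with guide 2 and -0.71 with guide 4, and Slc1a2 was -0.59 with guide 4 and -1.05 with guide 2, none past the threshold (edgeR adjusted p 0.57 or more). At an unadjusted p under 0.05, Glul, Slc1a2 and Lgr5 were lower with guide 2 (4.13% of all genes), each without overlap (10% of all genes), and Glul was lower with guide 4 (3.91% of all genes changed at that level). Old control replicate 3, the highest of all livers for each of these genes, was among the old controls here.

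Of 25 genes for Wnt ligands, R-spondins and their secretion, 10 passed the filter, and 2 rose and 0 fell in old against young controls. Rspo3, the R-spondin of the central vein, rose from 4.87 ± 0.731 in young to 7.82 ± 0.967 CPM in old controls (SD, n = 3 per group; log2 fold change 0.68, SE 0.19; edgeR adjusted p 0.0307). Its call was lost without young replicate 1 or 2 or old control replicate 1 or 2 (edgeR adjusted p 0.0534 to 0.107), or with only these 2 groups in the fit (0.0797). Wls, which carries Wnt proteins to the cell surface, rose from 3.46 ± 0.991 in young to 8.65 ± 2.28 CPM in old controls (SD, n = 3 per group; log2 fold change 1.32, SE 0.24; edgeR adjusted p 0.00924). The summed liver endothelium markers given above were higher in the same livers, and 8 markers of central vein endothelium, which include Rspo3, summed to 36.9 to 46.6 CPM in young, 37.4 to 60.5 in old control and 27.3 to 46.1 CPM in Cd44KO livers. Wnt2 had 3.18 ± 1.05 and 3.09 ± 1.36 CPM, and Wnt9b 2.32 ± 1.01 and 2.35 ± 1.77 CPM in young and old controls (SD, n = 3 each), with log2 fold changes of -0.05 and 0.01. The Wnt9b mean rested on old control replicate 3, at 4.39 CPM against 1.33 and 1.32 CPM in the other 2. In Cd44KO livers Rspo3 had 4.59, 6.28, 5.51 and 4.78 CPM, below every old control, a log2 fold change of -0.56 (SE 0.18, unadjusted p 0.00918, edgeR adjusted p 0.744). Wls was also below every old control, at 5.46, 5.19, 6.03 and 5.49 CPM against 6.83, 11.2 and 7.92 CPM. These were the 2 of the 10 tested genes of this list that were lower without overlap (3.26% of all genes). Log2 fold changes were below 0 for 7 of the 10 and above 0 for 3. The summed liver endothelium markers were lower in Cd44KO livers than in old controls. The central vein sums of these 2 groups overlapped. Of the 8 central vein markers, however, 7 had log2 fold changes below 0 and 1 above, and 0 passed with edgeR. Their median was -0.69, against -0.63 for the 12 liver endothelium markers and -0.02 over all genes tested. The part of these markers in the Rspo3 value was not tested.

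**Figure D4:**
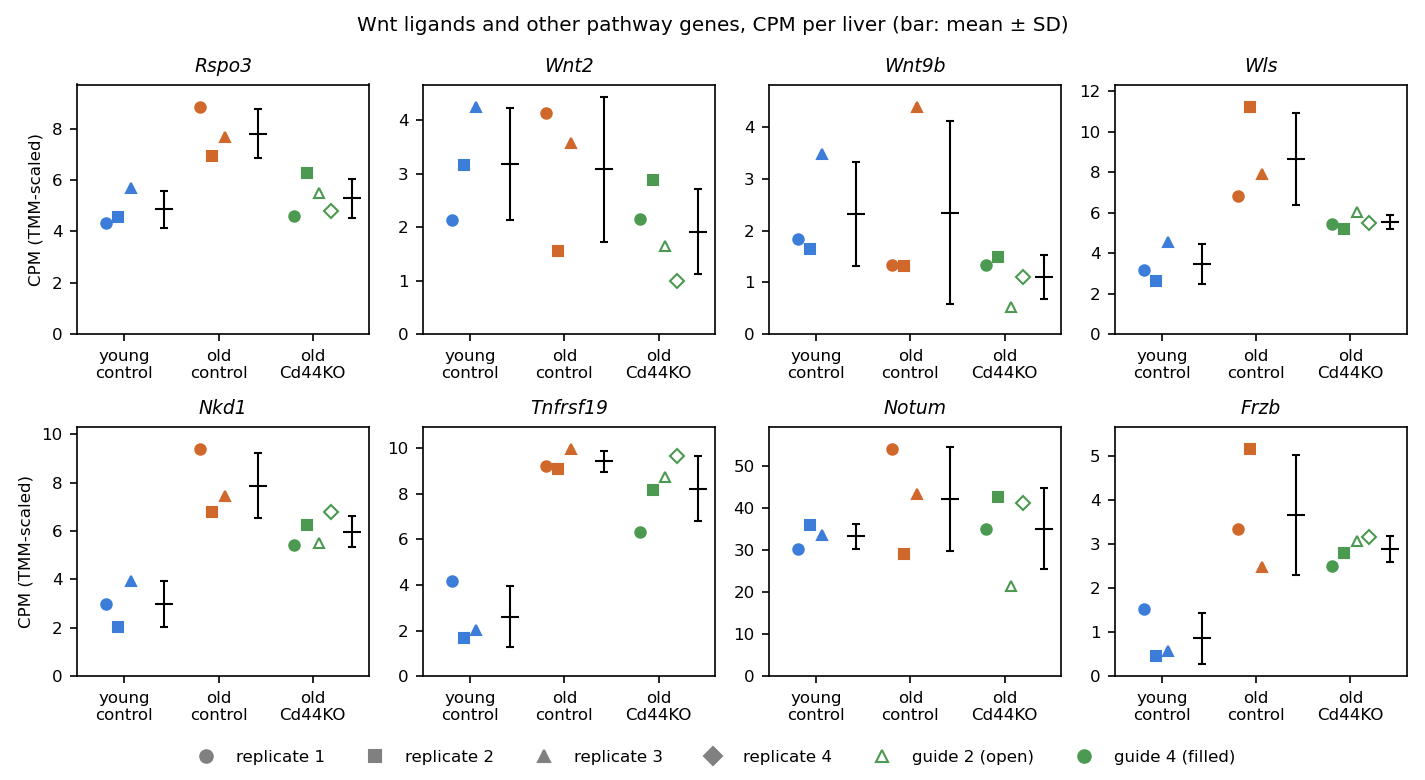
TMM-scaled CPM of 8 pathway genes in each liver, with shapes, fills and bars as in the plot of the 10 genes. Rspo3, Wls, Nkd1, Tnfrsf19 and Frzb are higher in every old control than in any young liver, while Wnt2, Wnt9b and Notum overlap.

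Among 15 other feedback and target genes, 10 passed the filter and 2 rose with age, with a median log2 fold change of 0.80 against 0.04 over all genes. Of 8 stellate cell markers, 6 rose in the same comparison, with a median of 1.09, and their part in this result was not tested. Nkd1, a feedback inhibitor that binds Dishevelled, had 2.999, 2.04 and 3.93 CPM in young and 9.39, 6.79 and 7.44 CPM in old control livers. Every old control exceeded every young liver (log2 fold change 1.39, SE 0.24; edgeR adjusted p 0.00819). Tnfrsf19, a receptor of the tumour necrosis factor family induced by Wnt, had 4.16, 1.65 and 2.03 CPM against 9.24, 9.12 and 9.97 CPM (log2 fold change 1.85, SE 0.30; edgeR adjusted p 0.00775). In Cd44KO against young livers the log2 fold change was 0.997 for Nkd1 (edgeR adjusted p 0.0276) and 1.65 for Tnfrsf19 (edgeR adjusted p 0.0131). The Nkd1 call there was lost without young replicate 1 or 2 or Cd44KO replicate 2, 3 or 4 (edgeR adjusted p 0.0603 to 0.112), and that of Tnfrsf19 without young replicate 2 or 3 (0.0671 and 0.0559). The target Sp5 did not pass with age (0.35, edgeR adjusted p 0.295).

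Of 17 receptor genes, 11 passed the filter, and Fzd6 and Fzd8 rose with age by 0.87 and 0.51 on the log2 scale (edgeR adjusted p 0.0253 and 0.0498), while Lgr4, the more abundant relative of Lgr5, had 0.03. Of 27 genes for the destruction complex and nuclear partners, 25 passed the filter. Dvl2 and Btrc rose by 1.08 and 0.65 and Gsk3b, the kinase that marks beta-catenin for breakdown, fell by 0.53 on the log2 scale (edgeR adjusted p 0.0208, 0.0312 and 0.00981). Ctnnb1, which encodes beta-catenin, had -0.08 and Tcf7l2 had 0.52, neither past the threshold. Of 16 inhibitors, 5 passed the filter, and Frzb and Kremen1 rose by 2.08 and 0.56 (edgeR adjusted p 0.0105 and 0.039). Frzb lost its call without young replicate 2 (edgeR adjusted p 0.0539). Notum, a secreted Wnt deacylase made by pericentral hepatocytes, had 0.34 (edgeR adjusted p 0.354). Against young livers, Cd44KO livers had 1 higher and 0 lower in each of these 3 lists: Fzd6 (0.93, edgeR adjusted p 0.0297), Amer1, a scaffold of the destruction complex (0.74, edgeR adjusted p 0.048), and Frzb (1.73, edgeR adjusted p 0.0283). There Frzb lost its call without young replicate 2 or 3 or Cd44KO replicate 2, 3 or 4 (edgeR adjusted p 0.0629 to 0.121). In these lists 0 genes passed between Cd44KO and old control livers.

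Among 26 other pericentral hepatocyte genes, 0 rose and 2 fell with age, with a median log2 fold change of -0.15. The 2 were Gstm1 and Cyp2c29, with -1.12 and -0.87 (edgeR adjusted p 0.0443 and 0.0436). Gstm and Cyp2c genes have close copies, so their reads are uncertain. Cyp2e1, the ethanol-oxidising cytochrome, had 6445, 4486 and 5892 CPM in young, 3946, 4047 and 7546 in old control and 3836, 4096, 3714 and 3147 CPM in Cd44KO livers. As for Glul, old control replicate 3 was the highest of all livers, and it was so for 10 of these 26 genes. Against young livers, Cd44KO livers had 0 higher and 3 lower, namely Cyp2c29, Slc16a10 and Cyp1a2 (-1.28, -0.93 and -0.52, edgeR adjusted p 0.0187, 0.0288 and 0.0499). The Cyp1a2 call was lost whenever 1 of the 7 livers compared was left out (edgeR adjusted p 0.0753 to 0.186). Among 22 periportal genes, 0 rose and 6 fell with age, among them Etnppl, Cdh1 and Cyp2f2 with -1.40, -1.31 and -1.13, and the median was -0.22. The remaining 3 were Gldc, Otc and Asl with -0.73, -0.68 and -0.41 (edgeR adjusted p 0.0135 to 0.0494 over the 6). Of 21 further genes for glutamine, glutamate and ornithine, 18 passed the filter, and 3 rose and 1 fell with age. Among them, Slc1a5 and Prodh rose by 1.09 and 0.55 with age, and Slc25a22 fell by 0.85 on the log2 scale (edgeR adjusted p 0.02 to 0.0362). Against young livers the Cd44KO livers had 0 higher and 1 lower, the asparagine synthetase gene Asns (-3.01, edgeR adjusted p 0.0165). Its level was low, at 0.85 ± 0.277 CPM in the guide 4 livers (SD, n = 2), so counting error weighs on this value. The value also pools guides that differed. Against old controls the Asns log2 fold change was -1.47 with guide 4 and -3.28 with guide 2, neither past the threshold. Glud1, which releases ammonia from glutamate, did not pass in old against young controls (-0.37, edgeR adjusted p 0.216).

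Calls of single genes outside the 10 were often lost when a liver was left out, which also lowers the number of livers in the test. Of the 22 genes named above as called with age, 19 lost the call when at least 1 of the 6 livers was left out. The other 3, Nkd1, Tnfrsf19 and Wls, passed whichever liver was left out. All 22 log2 fold changes kept their sign, at 0.622 to 1.36 times the value over all livers. With total counts in place of TMM, 8 of the 22 lost the call, all of them lower in old livers: Gsk3b, Gstm1, Cyp2c29, Cdh1, Cyp2f2, Gldc, Asl and Slc25a22. In Cd44KO against young livers, Amer1 and Cyp1a2 lost the call whichever of the 7 livers was left out, Slc16a10 without each of 6, Fzd6 without 5, Cyp2c29 without 4 and Asns without 2 of them.

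The genes whose log2 CPM was most like that of Glul over the 10 livers, of 13908 others, were Atrnl1, Gulo and Zfp36l1, with Pearson r of 0.95, 0.92 and 0.92 and Spearman rho of 0.92, 0.78 and 0.75. Without the 2 livers farthest from the Glul median (old control replicate 3 and Cd44KO replicate 1), r was 0.77, 0.64 and 0.65. For Axin2 they were Gm10653, Rnf41 and Zfp644 (r of 0.94, 0.94 and 0.92), and for Lgr5 Timeless, Vav2 and Tspyl5 (r of 0.89, 0.88 and 0.87). These values describe the same 10 libraries, were picked as the highest and carry no test.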

How the data were processed

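Raw counts of reads for each symbol and liver, not normalized, are what the authors deposited. Per the labels' protocols, polyadenylated RNA was prepared with a Watchmaker kit and read in pairs of 75 bases. The submitters' processing notes name FastQC 0.11.8, Trim Galore 0.4.4, STAR 2.5.3a, HOMER and the build mm10; annotation and strand use are not given in the sources used here, so overlapping and antisense genes are uncertain.

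Counts were tested with edgeR 4.0.16 in R 4.3.3 by the quasi-likelihood test over all 10 libraries, with 1 coefficient per group (or per guide), TMM factors and filterByExpr (minimum count 10, minimum total 15), which left 13909 genes. P-values were adjusted by Benjamini-Hochberg over these, and a gene passed under 0.05. The SE is the log2 fold change divided by the square root of F. Alternatives were DESeq2 1.42.0, limma 3.58.1 voom, other scalings and filters, and leaving out each liver. Replicates of a group differed beyond counting noise (chi-square at least 20.3 times its degrees of freedom). Positions and exon lengths are from GENCODE M21 (GRCm38). The tests were checked on simulated counts. The members and lists were chosen with earlier results of these data known. All members and the targeted gene are named, with a fixed set of pathway genes and up to 5 called genes per list and direction; Asl and Glud1 were named after their values were seen, and 1 called gene of the glutamine list is not reported here.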

Additional observations from a re-analysis of the deposited data

Results flagged for a closer look

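Among the 4 livers labelled Cd44KO, Slc1a2 was far higher in replicate 2 than in the others, at 111 CPM against 62.9 to 64.4 CPM. That gap is 0.969 of the whole range. It was the only such case among 29 results examined in this way, and chance alone flags about 1 in 20.

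Cyp2a5, 1 of the other pericentral genes, differed between guides in a direct test. Guide 4 livers had 253 and 382 CPM, guide 2 livers 1515 and 1416 CPM (log2 fold change -2.21, SE 0.26; edgeR adjusted p 0.0332). Old controls had 401 to 460 CPM. The call was lost when any 1 of the 4 livers was left out, which leaves a lone liver for 1 guide that is assumed to vary like the others (edgeR adjusted p 0.147 to 0.54), and with total counts (0.0765). The reads of Cyp2a5 are uncertain because of its close paralogs.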

How the results depend on the processing

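No paired analysis was possible because replicate numbers here were given in accession order and tie no livers together. The total-count scaling was chosen after seeing the data. The number of the 10 genes called with age, 1, was 2 with DESeq2 (Rnf43 and Rhbg; 28.2% of all genes called), 4 with total counts (30.4%) and 0 when a log2 fold change of at least 1 was required (11.1%). Leaving out each liver gave 0 to 2, where 2.8% to 37.7% of all genes were called. Against young livers, the Cd44KO count of 1 became 3 with only these groups in the fit (31% of all genes called), 3 with total counts (25.8%) and 0 with a log2 fold change of at least 1 (5.44%). Leaving out each liver gave 0 to 1, where 0.395% to 11.9% of all genes were called. The causes were not tested. The counts between Cd44KO and old control livers, and those of each guide, were 0 under every alternative run. Over all genes, the age count of 3172 ranged from 396 to 5327 when a liver was left out and was 1192 with only the groups compared. Counts of 48 to 175 for Lgr5 and 66 to 262 for Rhbg limit their precision.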
